A study of Mus musculus with 72 samples.

Results

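The inter-alpha-trypsin inhibitor family is a group of plasma proteins made mainly by the liver. Its 6 genes examined here were Itih1, Itih2, Itih3, Itih4, Itih5 and Ambp, taken by symbol from 22823 genes in the liver count table. The count table of the suprachiasmatic nucleus (SCN), a small hypothalamic region known as the master circadian pacemaker, lists 15759 genes and 2 of the 6, Itih3 and Itih5. The family was selected on these measured values: Itih1 was lower in liver and Itih3 higher in SCN on the test diet. Differences of the 6 genes between the diets are therefore given as descriptions, and nothing is read from how many of them were among the genes called for diet.

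RNA-seq had been run on 72 libraries, 36 from liver and 36 from SCN, of mice whose labelled genotype is c57bl/6. For 11 days the mice were fed food deficient in methionine and choline (MCD) or control food of equal energy content. They were housed singly, first under a light-dark cycle and on the last day in constant darkness, and were killed at 6 circadian times (CT), every 4 h from CT0. With 2 males and 1 female per time point and diet, a diet was represented by 18 libraries per tissue, in 24 groups over both tissues. In every group the female is labelled replicate 3 and the males replicates 1 and 2. Sex and replicate number therefore cannot be told apart in any of the differences by sex below. Per the labels' protocols the mice were 8 to 12 weeks old at purchase, the liver piece came from the left lobe, and the SCN was cut by laser from stained sections. The protocol mentions males, without females. The samples' own sex labels were followed, and in all 72 libraries the order of Xist and the Y-linked Ddx3y went with the label. The labels do not tie the liver and SCN libraries of one mouse together.

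In the inter-alpha inhibitor, heavy chains encoded by Itih1, Itih2 and Itih3 are joined to bikunin, a Kunitz-type protease inhibitor, through a chondroitin sulfate chain carried by bikunin. Heavy chains can be passed from this chain to hyaluronan, a polysaccharide of the extracellular matrix, by TSG-6, the product of Tnfaip6. Ambp encodes the precursor that is cleaved into bikunin and alpha-1-microglobulin, a small haem-binding protein. Itih4 encodes a related plasma protein that is not joined to bikunin and is known as an acute-phase protein. Itih5 belongs to the same family and is known mainly from tissues other than liver.

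Total counts per library ran from 52.6 to 86.74 M in liver (median 64.36 M) and from 23.35 to 79.81 M in SCN (median 57.03 M; M, 1e6 counts). Liver libraries fell into 2 kinds by the mitochondrial transcript mt-Nd6, at 41.6 to 119 CPM (counts per 1e6 counts) in 21 libraries and at 414 to 925 CPM in 15. There were 8 control and 13 MCD libraries in the first of these. Both gene tables carry the same name on a pair of columns of control males at CT8, which are called a and b here. In liver, library a had the lowest Itih1 level among the controls, at 605.6 CPM. All 10 hepatocyte markers were in the liver table, and all 10 SCN neuron markers were in the SCN table. Their summed level was 73537 to 137574 CPM over the liver libraries and 1902 to 4581 CPM over the SCN libraries.

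Itih4, Itih3 and Itih1 lie next to each other on chromosome 14 in the mouse annotation GENCODE M21, Itih4 on the plus strand and Itih3 and Itih1 on the minus strand. Itih2 (minus strand) and Itih5 (plus strand) are neighbours on chromosome 2, and Ambp lies on the minus strand of chromosome 4. The annotation has no gene overlapping any of the 6. The sequence before the start of the chromosome 14 genes is shown because the widest diet gap and both differences by sex described below fell on these 3 neighbours. Each run is the 150 bases upstream of the RefSeq start in build GRCm38.p6, 5′ to 3′ on the gene's strand. Capitals mark matches to the motifs named below.
Itih4, chr14:30886326-30886475, plus strand: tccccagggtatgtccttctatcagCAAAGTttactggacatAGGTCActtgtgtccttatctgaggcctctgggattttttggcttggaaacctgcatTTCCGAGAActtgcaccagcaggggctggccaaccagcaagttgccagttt
Itih3, chr14:30923588-30923737, minus strand: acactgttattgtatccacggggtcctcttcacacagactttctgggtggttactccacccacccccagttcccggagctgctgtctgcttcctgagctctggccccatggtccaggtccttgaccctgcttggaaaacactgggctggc
Itih1, chr14:30943290-30943439, minus strand: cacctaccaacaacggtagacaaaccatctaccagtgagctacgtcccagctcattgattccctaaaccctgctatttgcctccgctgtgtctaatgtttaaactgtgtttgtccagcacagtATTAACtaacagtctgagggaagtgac

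The 250 bases before the start of each of the 6 genes were searched on both strands for 9 motifs, and the same was done for 32851 RefSeq windows. Itih4 held a STAT match (TTCNNNGAA), which 7.02% of all windows held. Itih4 also held the HNF4 letters CAAAGT and the ROR letters AGGTCA, found in 12.6% and 14% of all windows. Itih1 held the HNF1 letters GTTAAT, on the other strand, found in 6.43% of all windows. Itih2 held a C/EBP match (TTGCNNAA) 33 to 26 bases before its start, overlapping the HNF4 letters, and 9.56% of all windows held the C/EBP letters. Ambp held the ROR letters at 2 places. Itih3 and Itih5 had none of these letters, and none of the 6 windows held the forkhead letters TGTTTAC, the CARE letters TGATGNAAT, the E-box CACGTG or the D-box letters TTATGNAA. These matches describe letters only.

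In liver, Ambp had the highest level per transcript length and Itih5 the lowest. Length is the union of exons in GENCODE M21, and levels between genes are compared as CPM per kilobase. On the control diet Ambp stood at 1306 ± 73.8 CPM per kilobase (SD, n = 18) and Itih4 at 499.8 ± 96.5. Itih2 followed at 321 ± 38.5, Itih3 at 232.5 ± 29.1, Itih1 at 217 ± 18.4 and Itih5 at 2.48 ± 0.496 CPM per kilobase. Ambp exceeded Itih4 and Itih2 exceeded Itih3 in 18 of 18 control libraries, and Itih4 exceeded Itih2 in 17. Itih3 exceeded Itih1 in 12 of 18 control libraries, so these neighbours in the order lay within their spread. On MCD, Itih3 exceeded Itih1 in 18 of 18 libraries.

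Itih1 had the widest gap between the diets of the 6 genes in liver. On the control diet its level ran from 606 to 818 CPM with a median of 717, and on MCD from 311 to 460.4 CPM with a median of 405. Every MCD library lay below every control library, in either kind of library: the means in the low and high mt-Nd6 kinds were 686 ± 62.4 and 739 ± 49.9 CPM on control (n = 8 and 10) and 388 ± 36.3 and 400.5 ± 63.8 CPM on MCD (n = 13 and 5). The means were 715.5 ± 60.6 and 392 ± 43.8 CPM (SD, n = 18 each), a log2 difference of -0.87 ± 0.04 (SE of the edgeR fit). At each of the 6 times the 3 MCD libraries lay below the 3 controls, with log2 differences from -1.16 at CT4 to -0.68 at CT16. Of all genes tested in liver, 0.306% had MCD libraries all above or all below the controls.

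Ambp, which encodes bikunin, was lower on MCD with some overlap. It ran from 1652 to 2027 CPM on control (median 1863) and from 1154 to 1746 CPM on MCD (median 1538), and 15 of 18 MCD libraries lay below the lowest control. The log2 difference was -0.27 ± 0.04. Itih2, the heavy chain with the highest level of the 3 that join bikunin, ran from 849 to 1263 CPM on control (median 1042) and from 792 to 1115 CPM on MCD (median 939). Its log2 difference was -0.16 ± 0.04, and only 4 MCD libraries lay below the lowest control.

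Itih3, also a heavy chain, overlapped widely between the diets in liver. Its range was 688.5 to 1041 CPM on control (median 850.0) and 529 to 1113 CPM on MCD (median 746), a log2 difference of -0.12 ± 0.06. Itih4 ranged from 1336.5 to 2413 CPM on control (median 1698) and from 1211.5 to 2013 CPM on MCD (median 1750.5), a log2 difference of -0.08 ± 0.07. Itih5 ranged from 13.9 to 26.6 CPM on control (median 19.1) and from 11.4 to 24.3 CPM on MCD (median 16.4), a log2 difference of -0.28 ± 0.08. For these 3 genes the diets were separated at no more than 2 of the 6 times.

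**Figure D1:**
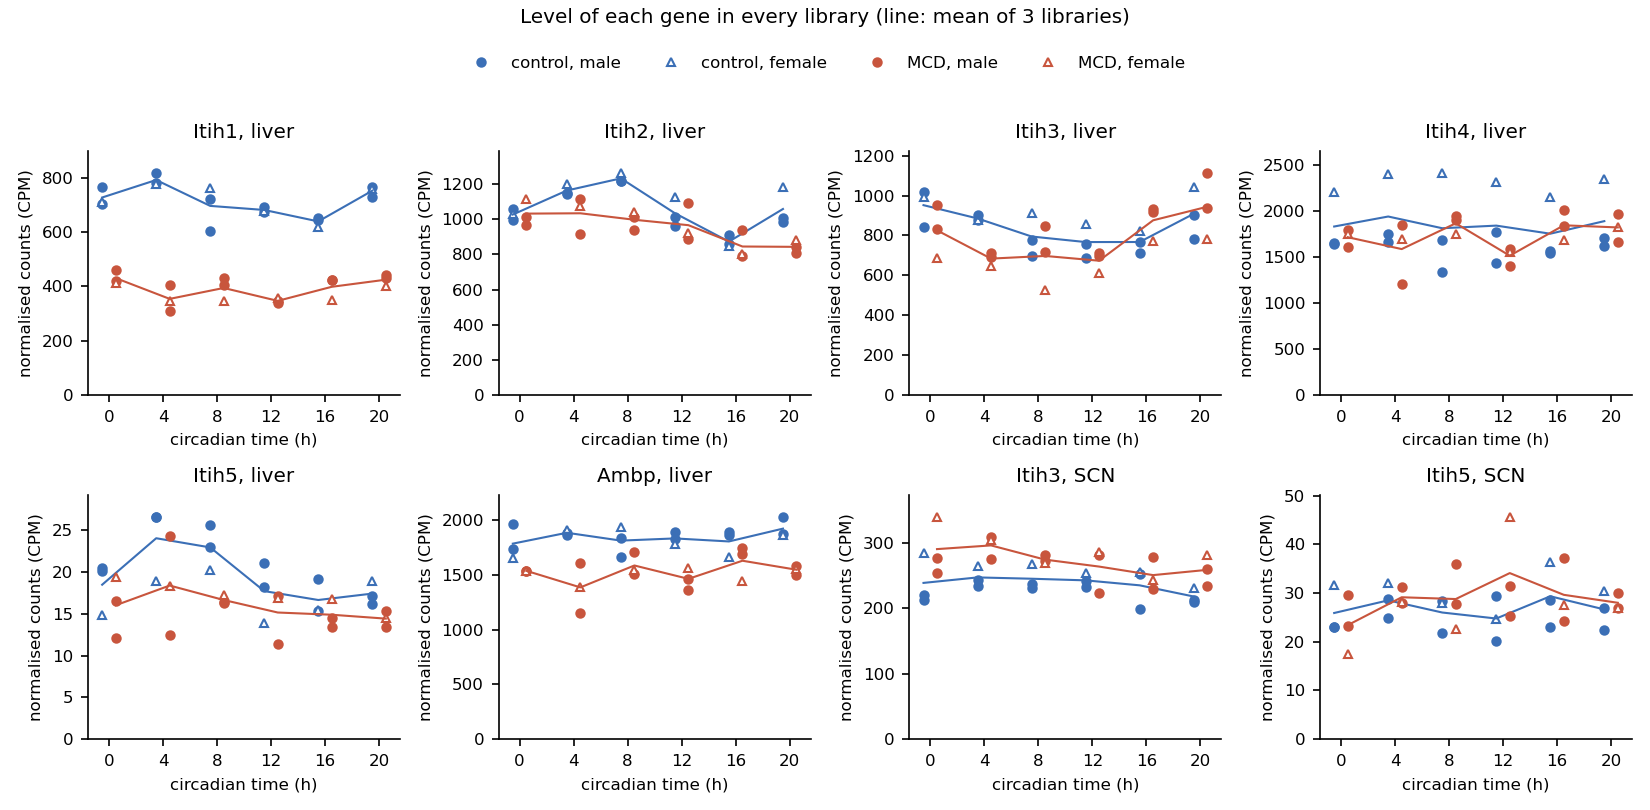
Normalised counts (CPM) of each gene against circadian time (h), 1 panel per gene and tissue, with 1 point per library (circles: males, open triangles: females; blue: control, red: MCD) and lines through the means of 3 libraries. Itih1 in liver is separated by diet at all 6 times, and Itih4 in liver shows control females at 2155 to 2413 CPM, above the 12 control males.

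At an adjusted p under 0.05, 4 of the 6 genes were among those lower on MCD, and 21.2% of all genes tested in liver were lower. The diet contrast chose the family, so nothing is read from this count. The median log2 difference was -0.22 over the 6 genes and 0.02 over all genes. Of the 10 hepatocyte markers, 6 were lower and 2 higher on MCD, with a median of -0.29, and their part in the values of Itih1 and Ambp was not tested. Scaling by library totals alone moved the all-gene median to 0.27 and gave Itih1 -0.62, Ambp -0.02, Itih5 -0.01, Itih2 0.10, Itih3 0.13 and Itih4 0.17. With that scaling 10633 genes were higher and 1540 lower, against 5130 and 4296 in the scaling used here, so the direction for Itih2, Itih3 and Itih4 depends on the scaling.

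Ratios between the genes within a library do not depend on that scaling. Itih1 made up 24.8% to 30.3% of the summed level per kilobase of Itih1, Itih2 and Itih3 in the control livers and 15.2% to 20.8% in the MCD livers, without overlap. The means were 28.2% ± 1.51 and 19.1% ± 1.5 (SD, n = 18 each). Itih2 had a share of 41.6% ± 2.91 on control and 46.4% ± 5.70 on MCD, and Itih3 30.1% ± 2.40 and 34.5% ± 4.86. Since a low level of Itih1 chose the family, its lower share restates that choice. By sex, the Itih3 share was 31.4% ± 2.43 on control and 31.3% ± 4.54 on MCD in females, and 29.5% ± 2.21 and 36.1% ± 4.36 in males. The ratio of Ambp to the sum of the 3 heavy chains was 1.71 ± 0.168 on control and 1.75 ± 0.190 on MCD. It was 1.59 ± 0.103 and 1.82 ± 0.144 in females, and 1.76 ± 0.169 and 1.71 ± 0.205 in males. The ranges of this ratio overlapped between the diets in either sex, and whether the diet difference varied with sex was not tested.

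**Figure D2:**
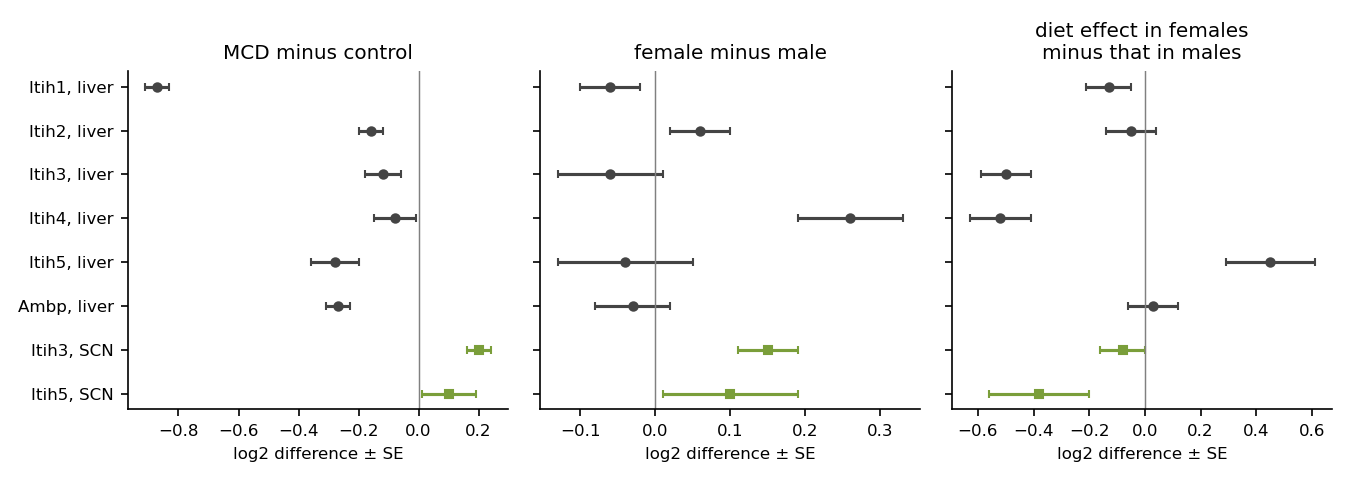
Log2 differences with the SE of the edgeR fit for MCD minus control, female minus male and the diet effect in females minus that in males, for 6 genes in liver (dark grey circles) and 2 in SCN (green squares); the horizontal scales differ between panels. Itih1 stands at -0.87 for diet, and Itih3 and Itih4 in liver stand at -0.50 and -0.52 for the difference in diet effect between the sexes.

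Sex was not used in choosing the genes, and Itih4 was the gene that differed most by sex in control livers. Its level was 2155 to 2413 CPM in the 6 control females (median 2331) and 1336.5 to 1771 CPM in the 12 control males (median 1643). The female values were 2206 CPM at CT0, 2401 at CT4, 2413 at CT8, 2318 at CT12, 2155 at CT16 and 2344 at CT20. Every control female therefore lay above every control male, which 1.74% of all genes tested showed in either direction. On MCD the 6 females were at 1550.4 to 1830.5 CPM (median 1725) and the 12 males at 1211.5 to 2013 CPM (median 1812), and the sexes overlapped.

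The diet effect on Itih4 in liver differed between the sexes by -0.52 ± 0.11 log2, females minus males (adjusted p = 0.01, edgeR's quasi-likelihood test, Benjamini-Hochberg). The level of Itih4 went from 2306 ± 104.5 CPM on control to 1711.5 ± 93.7 CPM on MCD in females (SD, n = 6 each). In males it went from 1613 ± 128 to 1731 ± 244.5 CPM (SD, n = 12 each). Fits within a sex gave a log2 difference between the diets of -0.43 ± 0.09 in females and 0.10 ± 0.06 in males.

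Itih3, its neighbour on chromosome 14, had a difference of the same sign. The diet effect on Itih3 in liver differed between the sexes by -0.50 ± 0.09 log2 (edgeR adjusted p = 0.00338). Its level was 820.4 to 1041 CPM in the control females (median 894) and 688.5 to 1017 CPM in the control males (median 779.5). On MCD it was 529 to 781 CPM in females (median 667) and 694 to 1113 CPM in males (median 840.0). Females were thus on the higher side on control and on the lower side on MCD, with overlap in both.

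**Figure D3:**
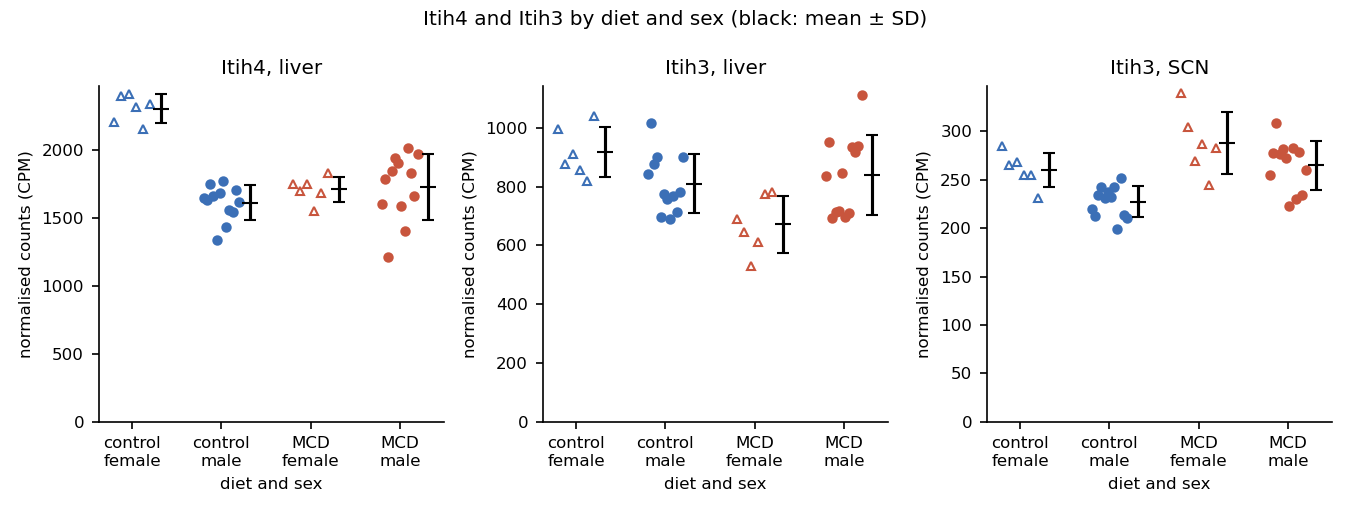
Normalised counts (CPM) of Itih4 and Itih3 in liver and of Itih3 in SCN by diet and sex, with 1 point per library (6 females and 12 males per diet) and the mean ± SD in black. The control females lie at 2155 to 2413 CPM of Itih4, apart from the control males at 1336.5 to 1771 CPM, and the sexes overlap on MCD.

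Of the 6 genes, these 2 were called for a diet effect that differed between the sexes in liver, both lower in females, and 1.77% of all genes tested were called. In a fit that adjusted for kind of library, they stood at -0.53 for Itih4 and -0.49 for Itih3. Leaving out any 1 of the 36 liver libraries left Itih4 between -0.56 and -0.48 (highest edgeR adjusted p = 0.0265) and Itih3 between -0.54 and -0.44 (highest adjusted p = 0.014). Itih1, on the same chromosome, was at -0.13 ± 0.08 (adjusted p = 0.561), Itih2 at -0.05 ± 0.09 (0.904) and Ambp at 0.03 ± 0.09 (0.958). Itih5 was at 0.45 ± 0.16 with an adjusted p of 0.179, and at 0.036 without the library MCD CT4 replicate 1.

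Averaged over both diets, Itih4 was higher in females by 0.26 ± 0.07 log2 (edgeR adjusted p = 0.0226), the 1 of 6 genes called, against 9.44% of all genes tested. This call was lost without any 1 of the 6 control females, with a highest adjusted p of 0.0627. Within the control diet Itih4 was 0.52 ± 0.08 log2 higher in females (edgeR adjusted p = 2.81e-05), and 9.87% of all genes tested were called. Within MCD it was at -0.01 ± 0.08 (adjusted p = 0.987). Itih3 was lower in MCD females by 0.32 ± 0.07 log2 (edgeR adjusted p = 0.00742), with 2.23% of genes called, and at 0.18 ± 0.07 in the control livers (adjusted p = 0.0822). These values within a diet were computed after the difference had been seen.

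The summed level of the 10 hepatocyte markers moved with these groups as well. It was 121587 to 134046 CPM in control females, 97062 to 123995 in control males, 97175 to 123807 in MCD females and 73537 to 137574 in MCD males. Averaged over the diets, 1 of the 10 markers was higher and 3 were lower in females. The 7 liver macrophage markers summed to a median of 453 CPM in control females and 325 in control males, and 3 of 7 were higher in females. Their part in the result was not tested. In bulk tissue, fewer cells of a type and less RNA per cell cannot be told apart.

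Rhythm over the day was the other measure independent of the choice. Itih2 was the 1 of 6 genes called for a 24 h rhythm in control livers, where 17.8% of all genes tested were called. Its range from trough to peak was 0.37 log2, with a peak at CT5.4 (edgeR adjusted p = 0.00573). The control mean rose from 1027 ± 30.2 CPM at CT0 to 1233 ± 26.5 at CT8 and was 873 ± 31.8 at CT16 (SD, n = 3 each). The 3 libraries at CT8 (1217.5 to 1263 CPM) lay above the 3 at CT16 (849 to 909 CPM) with a wide gap.

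On MCD, Itih2 and Itih3 were called for a 24 h rhythm in liver, 2 of 6 genes, against 28.2% of all genes tested. Itih2 had a range of 0.32 log2 and a peak at CT5.1 (edgeR adjusted p = 0.0122), with an adjusted p of 0.0589 by library totals alone. Its mean was 1034 ± 106 CPM at CT4 and 843 ± 36.8 CPM at CT20. Itih3 had a range of 0.51 log2 and a peak at CT19.7 (edgeR adjusted p = 0.0102). Its mean was 673.5 ± 54.0 CPM at CT12 and 944 ± 166.5 CPM at CT20. The call for Itih3 was lost without MCD CT8 replicate 3 or without MCD CT20 replicate 2, with a highest adjusted p of 0.0614.

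The other genes did not pass for rhythm in liver in the fit used here, and for some the call depended on the setting. On control, Itih5 had a range of 0.54 log2 with a peak at CT5.4 (edgeR adjusted p = 0.0628), and Itih1 and Itih3 had ranges of 0.23 and 0.34 (adjusted p = 0.109 and 0.139). Itih1 and Itih5 passed on control by library totals alone (adjusted p = 0.00265 and 0.0467) and by DESeq2 (0.038 and 0.0445). Itih5 also passed by edgeR without control CT4 replicate 3, MCD CT4 replicate 1 or MCD CT4 replicate 2. On MCD, Itih1 had a range of 0.25 log2 (edgeR adjusted p = 0.0626) and passed by library totals alone (0.03) and by DESeq2 (0.0179). It also passed by edgeR without control CT8 library a, control CT8 replicate 3 or MCD CT4 replicate 2. Itih4 and Ambp had ranges of 0.08 and 0.03 log2 on control and 0.11 and 0.12 on MCD, with adjusted p from 0.556 to 0.98. No gene of the 6 was called for a difference in rhythm between the diets by edgeR or DESeq2, while 4.87% of all genes were by edgeR. The Itih3 peak lay 4.4 h earlier on MCD than on control, with an unadjusted p of 0.0411 and an adjusted p of 0.225.

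Counts per exon bin, a stretch of exon shared by the same transcripts, were used to describe which parts of the genes the reads came from. The 6 genes had 146 bins, as many in each gene as there are exon parts in GENCODE M21. The bins carry no coordinates here, so a bin was read as the exon part of the same rank in ascending order, which goes better with part length than the reverse order in all 6 genes. In liver, bin 25 of Itih3 had the highest share of its variance in a 24 h component. By rank it is a part of 487 bases that belongs only to a transcript annotated as retaining an intron.

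On the control diet, bin 25 held 3.01% to 4.02% of the Itih3 bin counts at CT0 and 1.21% to 1.47% at CT8 (n = 3 each). On MCD it held 3.55% to 3.82% at CT16 and 0.596% to 1.25% at CT8. The 24 h component took 0.65 of the variance within diets, with a permutation p of 1e-05 in 100000 permutations, the smallest they can give (adjusted p = 0.00124 over 124 bins). Mean shares were thus lowest at CT8 in both diets, and highest at CT0 on control and at CT16 on MCD. In the control libraries alone the peak fell at CT21.2, and in the MCD libraries alone at CT18.0. The counts behind these shares were 465 to 2975 per library.

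**Figure D4:**
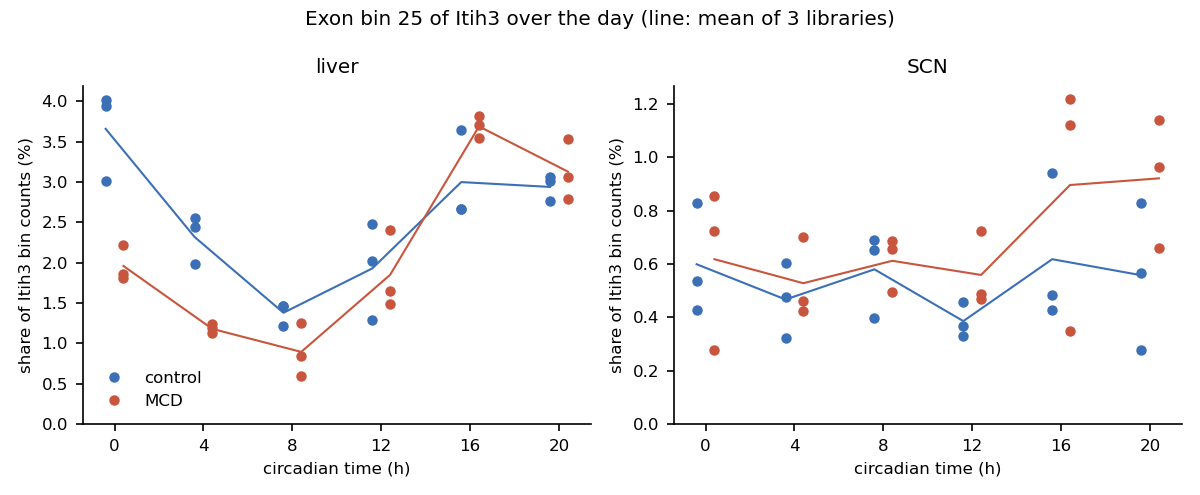
Share of Itih3 bin counts that fell in bin 25 (%) against circadian time (h) in liver and SCN, with 1 point per library and lines through the means of 3 libraries per diet. In liver the share is 0.596% to 1.47% at CT8 and 2.67% to 3.82% at CT16, and in SCN it lies between 0.277% and 1.22%.

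The exon-bin files of the 2 control males at CT8 could not be tied by name to library a or b, so their kind is not known and they are left out of the values by kind. The component was 0.74 of the variance in 20 libraries of low mt-Nd6 (permutation p = 0.00011) and 0.52 in 14 of high mt-Nd6 (permutation p = 0.0253). Reads outside any bin made up 4.52% to 21.4% of the reads at CT4 to CT12 and 9.49% to 19.7% at CT16 to CT0, with medians of 11.5% and 11.7%. Among the libraries of low mt-Nd6 these medians were 8.73% and 10.9%, so that reads outside bins moved with the bin 25 share there, and among those of high mt-Nd6 they were 16.5% and 16.8%. Their part in the result was not tested. Bin 11 of Itih3, a coding part of 81 bases by rank, held 0.075% to 0.124% at CT8 and 0.3% to 0.541% at CT16, below the mean share of 0.5% needed to be tested. Of the 124 liver bins of the 6 genes tested, 29 (23.4%) passed for a 24 h component, 13 of them in Itih3 and 10 in Itih1. In SCN 1 of 42 bins (2.38%) passed, also in Itih3. Bins of other genes were not tested, so these counts have no background and nothing is read from them. Shares within a gene sum to a whole, so bins of 1 gene are not independent.

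Bin 8 of Itih1, a coding part of 15 bases by rank, separated a few liver libraries from the others. It held 0.0459% to 0.886% of the Itih1 bin counts in 7 libraries and 1.3% to 2.76% in the other 29. All 7 were from CT4 to CT12, and 5 of them were from MCD livers. By kind, 5 of the 7 were of low mt-Nd6, 1 was of high mt-Nd6 and 1 was a control male at CT8 of unknown kind, against 15 of low and 13 of high mt-Nd6 among the other 29. The part of diet and kind of library in this split was not tested. The dip was not confined to bin 8. Bins 6 to 9 of Itih1 all passed for a 24 h component, with peaks from CT19.0 to CT19.4 (highest adjusted permutation p = 0.0485). Bin 7 held 1.22% to 2.21% at CT8 and 2.69% to 3.13% at CT0 on MCD. No bin of the 6 genes separated the MCD from the control livers.

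In SCN, Itih3 was the abundant member. Its level ran from 199 to 284 CPM on control (median 236) and from 223 to 340 CPM on MCD (median 277). The means were 238 ± 22.6 and 273 ± 29.1 CPM (SD, n = 18 each), a log2 difference of 0.20 ± 0.04 with higher values on MCD at each of the 6 times. The diets overlapped, with 4 MCD libraries above the highest control and 5 control libraries below the lowest MCD library. Itih3 was 1 of 2 genes among the edgeR calls for diet (0.0635% of all SCN genes), a count that the choice of the family fixed, and it was not among them in 25 of the 36 fits that left out 1 library.

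Itih5 in SCN ran from 20.2 to 36.4 CPM on control (median 27.5) and from 17.5 to 45.6 CPM on MCD (median 27.8), a log2 difference of 0.10 ± 0.09. The MCD range took in the whole control range, with 1 MCD library below the lowest control and 2 above the highest. The largest value, 45.6 CPM, came from the MCD female at CT12.

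Sex was tested in SCN apart from the choice of genes. Itih3 was higher in females by 0.15 ± 0.04 log2 (edgeR adjusted p = 0.0189), and 9.89% of all SCN genes were called. Its level was 231 to 284 CPM in 6 control females (median 260.2) and 199 to 252 in 12 control males (median 232). On MCD it was 244 to 340 CPM in females (median 285) and 223 to 309 in males (median 274). Within 1 diet the difference did not pass, at 0.19 ± 0.06 on control (adjusted p = 0.101, with 0.755% of genes called) and 0.12 ± 0.06 on MCD (adjusted p = 0.295, with 0.171% called). Itih5 was at 0.10 ± 0.09 (adjusted p = 0.557).

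Astrocyte markers moved with sex as well: 5 of the 12 were higher in females and none lower, with a median log2 difference of 0.13. Their summed level was 4237 to 5100 CPM in control females and 3729 to 4190 in control males, without overlap. On MCD it was 4229 to 5255 in females and 3791 to 4755 in males. Their part in the sex difference of Itih3 was not tested. For diet, none of the 12 astrocyte markers passed by edgeR, with a median log2 difference of 0.08. At an unadjusted edgeR p under 0.05 there were 7. This count has no share of all SCN genes beside it, so nothing is read from it. DESeq2 called 2 of the markers, 1 in each direction, and 46 genes over the whole SCN table. The part of the astrocyte markers in the diet values of Itih3 was not tested.

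Neither gene was called for a 24 h rhythm in SCN by edgeR or DESeq2, while edgeR called 15.1% of all genes on control and 16.1% on MCD. Itih3 had a range of 0.15 log2 on control (edgeR adjusted p = 0.388) and 0.23 on MCD (adjusted p = 0.0955), which had an adjusted p of 0.0226 without MCD CT16 replicate 2. Itih5 had ranges of 0.05 and 0.37 (adjusted p = 0.974 and 0.292). Of these 4 tests, 1 had an unadjusted p under 0.05. Neither gene was called for a difference in rhythm between the diets (unadjusted p = 0.229 and 0.267), nor were more than 0.0127% of all genes. Neither gene had a diet effect that differed between the sexes, at -0.08 ± 0.08 for Itih3 (adjusted p = 0.896) and -0.38 ± 0.18 for Itih5 (adjusted p = 0.868), and edgeR called no SCN gene for it while DESeq2 called 1, which was not a member. Itih5 had an unadjusted p of 0.0383.

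Between the tissues on the control diet, Itih3 was 2.82 ± 0.04 log2 higher in liver, a 7.05-fold difference (edgeR adjusted p = 4.76e-29), where 91.3% of the 14491 genes in both tables were called. Itih5 was 0.52 ± 0.08 log2 higher in liver in this fit (adjusted p = 5.89e-07). By library totals alone Itih3 stayed higher at 2.10, while Itih5 was lower in liver at -0.20 (adjusted p = 0.0242), and the median of all genes moved from -0.03 to -0.75. The order of the tissues for Itih5 is thus not settled by these counts.

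The exon-bin files hold counts in SCN for the 4 genes that are not rows of the SCN gene table. Itih1 had 0 to 2 counts in any of the 36 libraries, under the floor of 3 counts (0.0444 to 0.164 per 1e6 bin counts). This scale has no TMM factor and is not the CPM of the gene table. On it Itih3 in SCN had a median of 421. Ambp was above the floor in 5 of 36 libraries, with at most 44 counts, from the control female at CT4. Itih2 was above it in 35 libraries with a median of 45 counts, or 0.932 per 1e6 bin counts, and Itih4 in 28 with a median of 14.5 counts. In liver these genes had 25678 to 214988 counts per library, so the SCN levels were those of few reads. Of the 10 hepatocyte markers, 8 are not rows of the SCN gene table, and the other 2, Alb and Apoa2, summed to 2.42 to 27.6 CPM. Floors cover counting error only.

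The spread of Itih3 reads over its exon bins is described for each tissue. Of its 36 bins, 14 (38.9%) had shares that did not overlap between 36 SCN and 36 liver libraries. Bins of other genes were not compared, so this count has no background. The 7 that were higher in SCN were 2, 3, 8 to 11 and 19, counted from the 3′ end, and the 7 that were lower were 28 to 34. Bin 30 held 5.3% ± 0.218 in liver and 3.31% ± 0.612 in SCN, and bin 9 held 4.24% ± 0.208 and 6.08% ± 0.484 (SD, n = 36 each). Bin 11 held 0.292% ± 0.136 in liver and 1.52% ± 0.239 in SCN. Tissue and the way the RNA was collected cannot be told apart. Bin 14 of Itih5, its last and longest part, held 52.2% ± 3.46 of the Itih5 counts in liver and 80.7% ± 7.96 in SCN, without overlap (1 of 14 bins, 7.14%).

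**Figure D5:**
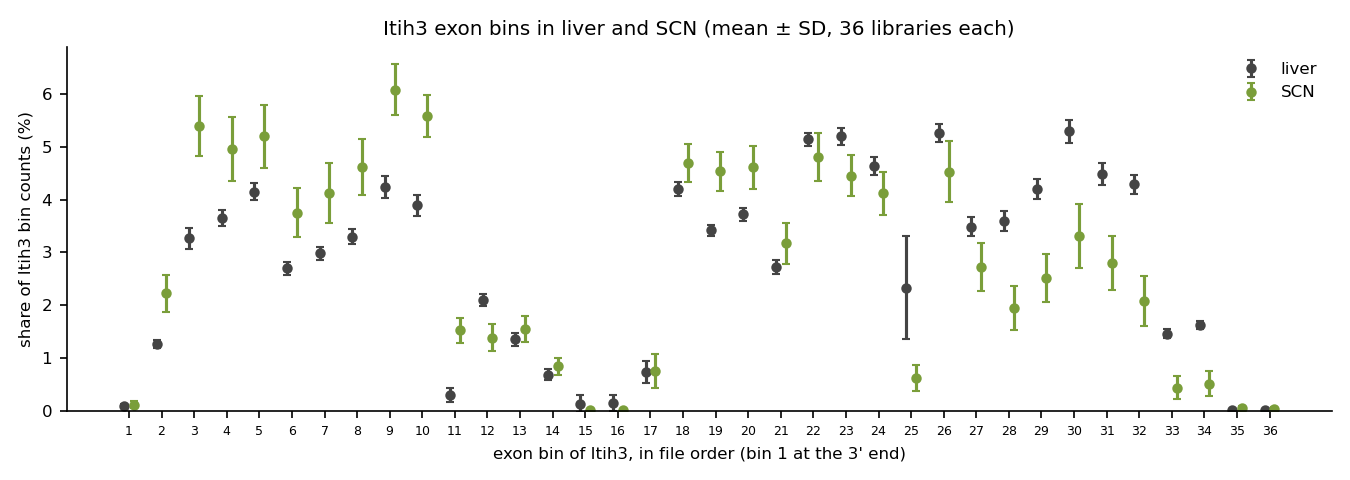
Share of Itih3 bin counts (%) in each of the 36 exon bins, in file order with bin 1 at the 3′ end, as mean ± SD over 36 liver (dark grey) and 36 SCN (green) libraries. SCN lies above liver in bins 2 to 11 and below it in bins 27 to 34, and bin 25 has the widest spread in liver.

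Genes of the surrounding pathway were followed in lists. Of 20 genes for chondroitin sulfate chains, the link between bikunin and heavy chains, 8 rose and none fell in liver on MCD, with a median log2 difference of 0.19 against 0.02 over all genes. Of all genes tested, 25.3% rose and 21.2% fell. By library totals alone 15 rose and none fell, with a median of 0.45 against 0.27. Chpf, which encodes a chondroitin polymerizing factor, rose from 2.88 ± 1.09 to 13.6 ± 3.00 CPM, by 2.25 ± 0.14 log2 (edgeR adjusted p = 2.32e-12). Chst11, a chondroitin sulfotransferase, rose by 1.31 ± 0.32 (adjusted p = 0.0013), from 0.301 ± 0.230 to 0.866 ± 0.983 CPM. B3galt6, a galactosyltransferase of the linker, rose by 0.72 ± 0.09 (adjusted p = 3.99e-07). Of the markers of other liver cells, 4 of 10 for stellate cells were higher and 1 lower, and 6 of 7 for macrophages were higher, and their part in these values was not tested.

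Of 26 genes for hyaluronan, its binding and its breakdown, 17 were tested in liver, of which 7 rose and 3 fell (25.3% and 21.2% of all genes), with a median of 0.15. Scaled by library totals, 11 rose and 2 fell, with a median of 0.41 against 0.27 over all genes. Cd44, a hyaluronan receptor, rose from 8.31 ± 3.31 to 14.7 ± 5.76 CPM, by 0.84 ± 0.15 log2 (edgeR adjusted p = 4.05e-05). Vcan, a hyaluronan-binding proteoglycan, rose by 1.27 ± 0.35 (adjusted p = 0.00411), and Hmmr, another hyaluronan-binding protein, by 2.77 ± 0.57 (adjusted p = 0.000275). Both stood under 2 CPM on average in either diet. The macrophage markers summed to 272 to 646 CPM on control and 356 to 753 CPM on MCD, and their part in these values was not tested.

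Of the 24 other plasma protease inhibitors tested in liver, 18 fell and 1 rose (21.2% and 25.3% of all genes), with a median log2 difference of -0.45. Of the 10 hepatocyte markers 6 fell and 2 rose, with a median of -0.29, and their part in these values was not tested. Serpina3k stands in both lists, so the inhibitors and the markers are not independent. By library totals alone 14 fell and 5 rose, with a median of -0.19. Serpina1e fell by 2.63 ± 0.27 log2 (edgeR adjusted p = 2.15e-08), from 6171 ± 4594 to 730.1 ± 281 CPM, and Serpina3k by 1.75 ± 0.17 (adjusted p = 6.84e-09). Serpina1d fell by 0.97 ± 0.10 (adjusted p = 1.18e-08). These serpins belong to multigene families with closely similar copies, between which reads may be split, so their values are uncertain. Of 24 acute-phase genes, 11 rose and 7 fell (25.3% and 21.2% of all genes), with a median of 0.24. Scaled by library totals, 14 rose and 4 fell, with a median of 0.51. Lcn2, a siderophore-binding protein, rose by 2.49 ± 0.52 (adjusted p = 0.000362), Il1rn, the interleukin-1 receptor antagonist, by 2.31 ± 0.29 (adjusted p = 3.56e-07) and Apcs, serum amyloid P, by 1.88 ± 0.15 (adjusted p = 2.62e-10). Of the 7 liver macrophage markers, 6 rose and none fell, with a median of 0.39. The part of these markers in the acute-phase values was not tested.

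Among 13 transcription factors enriched in liver, 1 rose and 4 fell (25.3% and 21.2% of all genes), with a median log2 difference of 0.03 against 0.02 over all genes. Onecut1 fell by 1.46 ± 0.27 log2 (edgeR adjusted p = 8.33e-05), from 98.9 ± 75.2 to 34.6 ± 24.3 CPM. Foxa1 fell by 0.45 ± 0.11 (adjusted p = 0.00111), and Cebpd rose by 0.53 ± 0.14 (adjusted p = 0.00257). By library totals alone 8 of the 13 rose and 1 fell, and the median of the list moved to 0.28 while that of all genes moved to 0.27. In either scaling the list's median lay close to that of all genes. Foxa1 was then at -0.19 (adjusted p = 0.0686). In SCN no gene of the 5 lists passed for diet by edgeR. At an unadjusted edgeR p under 0.05 there were 6 of 52, without a share of all SCN genes beside them. DESeq2 called 1, lower, in the chondroitin sulfate list, and 46 genes over the whole SCN table.

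The genes nearest to each member were sought over the 36 libraries of a tissue, by Pearson's r of log2 CPM after diet, time and sex had been removed. The libraries share depth and quality, so these values describe the libraries and carry no test. Among 13840 liver genes, the nearest to Itih1 were Hcfc1r1 (r = 0.89), Plg (0.88) and Hebp1 (0.87). The nearest to Itih4 were Emc10 (0.91), Rdh16f2 (0.90) and F7 (0.89), and those to Itih3 were Cyp2c39 (0.85), Mat1a (0.85) and Aass (0.83). Ambp was nearest to Ces1d (0.88), Pbld2 (0.87) and Vtn (0.86). For Itih2 they were Naip6 (0.79), Tmem159 (0.77) and Ptpn22 (0.75), and for Itih5 Adam11 (0.78), Med12 (0.77) and Cib3 (0.73).

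Within the family, Itih3 and Itih4 had r = 0.76 in these residuals, which ranked Itih4 15 among the genes nearest to Itih3 and Itih3 150 among those nearest to Itih4. Itih1 and Itih4 had 0.75 (rank 143 for Itih1 and 159 for Itih4), and Itih1 and Itih3 had 0.61 (rank 801 for Itih1 and 190 for Itih3). Itih1 and Ambp had 0.67. Itih5 went the other way from Itih4, at -0.67, and Itih2 stood apart from Itih1 (-0.13) and Itih4 (-0.14). In SCN the genes nearest to Itih3 were Sparcl1 (0.76), 2310022B05Rik (0.76) and Mxra7 (0.72), and those nearest to Itih5 were Dzip1 (0.77), Klhdc7a (0.77) and mt-Nd4l (0.76), among 15722 genes. Itih3 and Itih5 had r = 0.21 there.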

How the data were processed

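Liver and SCN gene counts and exon-bin counts are whole-number read counts that the authors deposited, per the file headers and values. The submitters' processing notes name Trimmomatic, HISAT2, StringTie and DESeq2 and the build GRCm39. The names of the deposited exon-bin count files give DEXSeq. For the tool behind the gene counts, and for strand setting and annotation, nothing is given in the sources used here. Genes were fitted per tissue with edgeR 4.0.16 (TMM, filterByExpr with a minimum count of 10, robust quasi-likelihood, Benjamini-Hochberg adjustment over all genes tested), with 6 components of time per diet and sex as a term. Diet-by-sex and liver-against-SCN fits were separate. Levels are TMM-normalised CPM. The exon-bin files of liver control CT0 replicates 1 and 2 end early and were used only for shares within a gene. Exon-bin shares were tested by 100000 permutations of times within diets. Alternatives were library totals, DESeq2 1.42.0, no filter, a replicate block, a cosine regression, kind of library, and single libraries left out. The members and lists were chosen with earlier results of these data known. List genes were named as the 3 with the largest change past the threshold, and nearest genes as the 3 with the highest r. The fits were tested on simulated data. Of simulated diet changes of 0.25 log2, 12% were recovered in liver and 44% in SCN, and at 1 log2 100% in both. Of simulated 24 h rhythms on control with a range of 1 log2, 72% were recovered in liver and 80% in SCN. Small differences that were not called may thus have been missed. GENCODE M21 (GRCm38) gave only lengths, strand and exon ranks. P-values of exon-bin shares come from the permuted times. P-values of the fits set an effect against the spread between mice that is left after the terms of the fit. A ± is the SD between libraries or, for log2 differences, the SE of the fit, which includes that spread.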

Additional observations from a re-analysis of the deposited data

Results flagged for a closer look

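The diet effect in liver differed between females and males for Itih3, by -0.50 log2, and for Itih4, by -0.52 log2, each by the edgeR test of the difference itself. Both are described above with the values of each sex.

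Counts in SCN were found for genes that are not rows of the SCN gene table. In the exon-bin files, Itih2 was above 3 counts in 35 of 36 SCN libraries, Itih4 in 28 and Ambp in 5. Their medians were 45, 14.5 and 0 counts.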

How the results depend on the processing

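By library totals alone, the liver diet difference became 0.10 for Itih2 and 0.17 for Itih4, the count of members called for liver diet became 2 (Itih1 lower at -0.62, Itih4 higher; the calls of Itih2, Ambp at -0.02 and Itih5 at -0.01 ended), that for liver rhythm on control became 3, and Itih5 turned to -0.20 between liver and SCN. DESeq2 called 3 members and the cosine regression 2 for liver rhythm on control, against 1. On MCD alone the sex difference of Itih4 in liver was -0.01, and the SCN sex count was 0 on control alone and 0 on MCD alone; these fits were chosen after seeing the data. Leaving out 1 library at a time gave 0 to 1 members for liver sex, 1 to 2 and 1 to 3 for liver rhythm on control and MCD, 0 to 1 for SCN diet and 0 to 1 for SCN rhythm on MCD.

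Same-numbered control and MCD libraries of 1 time deviated together (r over 0.1) in 5 of 16 liver and 4 of 16 SCN comparisons. Sex had been removed before, and every female is replicate 3. The comparison therefore could not show a shift shared by all libraries of replicate 3. A fit with the replicate block, without the columns that carry no number, called 0 members for SCN diet, with Itih3 at 0.19, and 5 for liver diet. It called 3 members for liver rhythm on MCD, Itih1 among them (adjusted p = 0.0323). It called 4 genes for SCN diet in all against 10, and 1248 against 2378 for SCN rhythm on control. It called 651 for the liver rhythm difference against 986.

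DESeq2 called 46 genes for SCN diet against 10, 2017 for the liver rhythm difference against 986, and 734 for liver diet by sex against 359. Library totals moved the share of calls that were higher from 54.7% to 70.6% for liver sex, from 51.5% to 40.5% for liver diet by sex, from 49.6% to 28.6% for SCN sex and from 49.1% to 30.2% for liver against SCN. The SCN counts of Itih1 (0 to 2) were under the floor of 3 counts and those of Ambp were above it in 5 of 36 libraries, so differences of these genes in SCN were not detectable at this depth.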
